A study of Mus musculus with 24 samples.

Results

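The 34 genes described here are mouse genes that respond to type I interferon, the family of secreted proteins that includes interferon alpha and interferon beta. They were chosen by name: each is a row of the deposited count table whose Ensembl identifier maps to a listed mouse symbol. The rule uses no measured value, but the list was drawn up with earlier results of these data known. All 34 were found among the 47643 gene rows of the table, and all 34 were among the 15000 genes with enough counts to be tested. By role, 4 encode transcription factors (Irf1, Irf7, Irf9, Stat2). There were 5 genes for RNA and DNA sensors and the kinase Eif2ak2 (Ifih1, Dhx58, Zbp1, Ifi204, Eif2ak2) and 8 genes for OAS proteins and nucleotide enzymes (Oasl1, Oasl2, Oas1a, Oas2, Oas3, Rsad2, Cmpk2, Isg20). A further 3 encode IFIT proteins (Ifit1, Ifit2, Ifit3) and 3 belong to the ISG15 pathway (Isg15, Usp18, Herc6). The rest were 2 genes for Mx GTPases (Mx1, Mx2), 2 for membrane restriction factors (Bst2, Ifitm3) and 7 others (Ifi27l2a, Ifi35, Ifi44, Xaf1, Rtp4, Trim30a, Parp14).

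Macrophages from 2 sources were profiled by bulk RNA sequencing: macrophages differentiated from mouse induced pluripotent stem cells (iPSC macrophages) and macrophages grown from mouse bone marrow (BM macrophages). The iPSC groups were day 0, without co-culture, and days 3, 6 and 12, with co-culture. The BM groups were the same 4 time points under the same culture labels, and each of the 8 groups held 3 libraries that the study calls independent replicates. The day 0 libraries were the study's controls, so time and co-culture changed together and cannot be told apart. The labels used here name neither the co-culture partner nor the strain, sex or age of the animals. They also do not say whether the iPSC came from 1 clone, or describe how macrophages were recovered from co-culture.

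Type I interferons are made by cells in which sensors such as Ifih1, Zbp1 or the DNA sensor pathway detect viral or misplaced nucleic acids. They bind the receptor made of Ifnar1 and Ifnar2, and the kinases Jak1 and Tyk2 then activate Stat2. The complex ISGF3, of which Stat2 and Irf9 are parts, enters the nucleus and binds the interferon-stimulated response element (ISRE) of target promoters. Irf7 raises further interferon production and Usp18 dampens signalling at the receptor. Macrophages, including the microglia of the brain, are known both as sources of interferon and as cells that keep a basal level of these genes.

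To show where ISGF3 sites stand in the genes that the results turn on, promoters were read from the RefSeq promoter table of build GRCm38.p6. It covers 250 bases before to 50 bases after each annotated start and held 24 of the 34 genes. The 10 genes not found in the table were Zbp1, Rtp4, Parp14, Dhx58, Usp18, Ifi204, Mx1, Oas2, Mx2 and Ifi27l2a. The ISRE was searched on both strands as GAAA followed, after any 2 bases, by GAAA. The gamma-activated site (GAS), another element of interferon signalling, was searched as TTCNNNGAA, which is its own reverse complement. The 24 genes had 30 windows, since some have several starts, and a gene was counted when at least 1 of its windows held a match. An ISRE match was found for 12 of the 24 genes, against 3.99% of the 27025 genes in the table. A GAS match was found for 8 of the 24 (33.3%), against 9.55% of all genes, and in 2 windows the 2 motifs overlapped. The 160 bases before the start are shown, 5′ to 3′ on the gene's strand, for 5 genes. A match lay in 3 of them (Isg15, at chr4:156200819-156200978 on the minus strand, Ifit1, at chr19:34640729-34640888 on the plus strand, and Rsad2, at chr12:26456453-26456612 on the minus strand). The changes of the other 2 were among the largest in both sources, and they have no match in this stretch (Oasl1, at chr5:114923080-114923239 on the plus strand, and Irf7, at chr7:141266425-141266584 on the minus strand). Capitals mark bases inside an ISRE match.
Isg15: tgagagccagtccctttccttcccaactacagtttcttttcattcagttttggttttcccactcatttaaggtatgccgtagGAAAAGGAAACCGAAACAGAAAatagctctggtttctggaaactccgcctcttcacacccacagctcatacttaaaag
Ifit1: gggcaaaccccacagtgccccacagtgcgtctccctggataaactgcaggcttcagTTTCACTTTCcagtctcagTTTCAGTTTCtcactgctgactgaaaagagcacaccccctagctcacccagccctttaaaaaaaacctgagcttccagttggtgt
Rsad2: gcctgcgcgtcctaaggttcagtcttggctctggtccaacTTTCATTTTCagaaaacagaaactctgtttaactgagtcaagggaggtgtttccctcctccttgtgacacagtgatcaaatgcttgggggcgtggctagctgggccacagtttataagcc
Oasl1: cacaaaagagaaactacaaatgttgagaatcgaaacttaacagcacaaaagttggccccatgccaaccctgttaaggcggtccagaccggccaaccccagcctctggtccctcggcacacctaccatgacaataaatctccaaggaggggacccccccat
Irf7: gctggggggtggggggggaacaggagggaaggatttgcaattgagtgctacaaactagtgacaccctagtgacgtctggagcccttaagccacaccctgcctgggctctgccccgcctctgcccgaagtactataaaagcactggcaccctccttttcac
In these stretches Isg15 held 3 matches, Ifit1 2 and Rsad2 1. A match is a string of letters and not a measured binding site, and the lack of one says only that these letters are not in the stretch shown.

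Libraries held 5839316 to 11805478 counted read pairs in genes, and levels are given below as counts scaled to library size (CPM), in the order of replicates 1, 2 and 3. The 12 macrophage marker genes were detected in every group, with a summed level of 7721 to 10473 CPM in iPSC libraries and 41842 to 44664 CPM in BM libraries at day 0. At day 12 the sums were 14085 to 34303 CPM in iPSC libraries and 26940 to 31051 CPM in BM libraries. The 6 fibroblast markers summed to 3.39 to 30.03 CPM in iPSC libraries at day 0, 21.7 to 91.5 CPM at day 3, 379 to 824 CPM at day 6 and 278 to 482 CPM at day 12. In BM libraries they summed to 1.56 to 15.3 CPM at day 0, 17.3 to 26.8 CPM at day 3, 33.1 to 63.4 CPM at day 6 and 108 to 192 CPM at day 12. The 10 microglia markers summed to 1457 to 1803 CPM in iPSC libraries at day 0 and 5443 to 9850 CPM on later days. In BM libraries they summed to 897 to 1019 CPM at day 0, 1678 to 2050 CPM at day 3, 4499 to 4753 CPM at day 6 and 6628 to 7077 CPM at day 12. The 8 neuron markers summed to 20.9 to 48.8 CPM at day 3, against 1.72 to 2.95 CPM at day 0, in iPSC libraries, and to 47.01 to 62.3 CPM at day 3, against 0 to 1.39 CPM at day 0, in BM libraries. The 7 oligodendrocyte lineage markers summed to 111 to 269 CPM at day 6, against 32.8 to 62.1 CPM at day 0, in iPSC libraries, and the 6 astrocyte markers to 81.4 to 91.2 CPM at day 12, against 26.3 to 49.5 CPM at day 0. In BM libraries at day 12 they summed to 81.6 to 109 CPM and 50.9 to 71.5 CPM, against 53.9 to 72.03 CPM and 14.7 to 22.04 CPM at day 0. All these sums moved with day or source, as the interferon genes did, and their part in the results was not tested. Markers of T and NK cells, neutrophils and B cells each summed to at most 1.45 CPM in any library. The 6 markers of plasmacytoid dendritic cells, the classic interferon producers, summed to between 55.9 and 360.2 CPM. Of these, Tcf4, Ccr9 and Cox6a2 had counts in every group. Siglech and Ly6d were at 0 in some groups, and Klk1 was at 0 in all 24 libraries. In such bulk samples fewer cells of a type and less RNA per cell cannot be told apart.

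As a sum, the interferon genes took opposite courses in the 2 sources, but not every gene did so. Before co-culture 27 of the 34 were higher in iPSC than in BM macrophages, against 18.9% of all genes. Ifi44, Ifi27l2a, Zbp1, Eif2ak2, Parp14 and Ifitm3 were not called there, and Eif2ak2 later rose in both sources. In iPSC macrophages 20 of the 34 had fallen by day 6, with Oasl1, Irf7, Rsad2, Isg15 and Usp18 among the largest falls. In BM macrophages most of the 34 were low before co-culture and nearly all rose by day 3. Summed over the 34 genes, the level in iPSC libraries was 5081 to 7294 CPM at day 0, 3447 to 4052 CPM at day 3, 2533 to 3070 CPM at day 6 and 2526 to 3179 CPM at day 12. In BM libraries the same sum was 1193 to 1752 CPM at day 0, 6090 to 6182 CPM at day 3, 4646 to 4906 CPM at day 6 and 3641 to 5527 CPM at day 12. The day 0 ranges of the 2 sources did not overlap and neither did those of any later day, but the order was inverted. The mean level of 27 of the 34 genes was highest at day 0 among iPSC groups, and that of 26 was highest at day 3 among BM groups. Over all 8 groups the lowest mean was in BM day 0 for 31 genes, in iPSC day 6 for 2 and in iPSC day 12 for 1. These counts of highest and lowest groups have no share of all genes beside them and describe the 34 genes only.

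**Figure D1:**
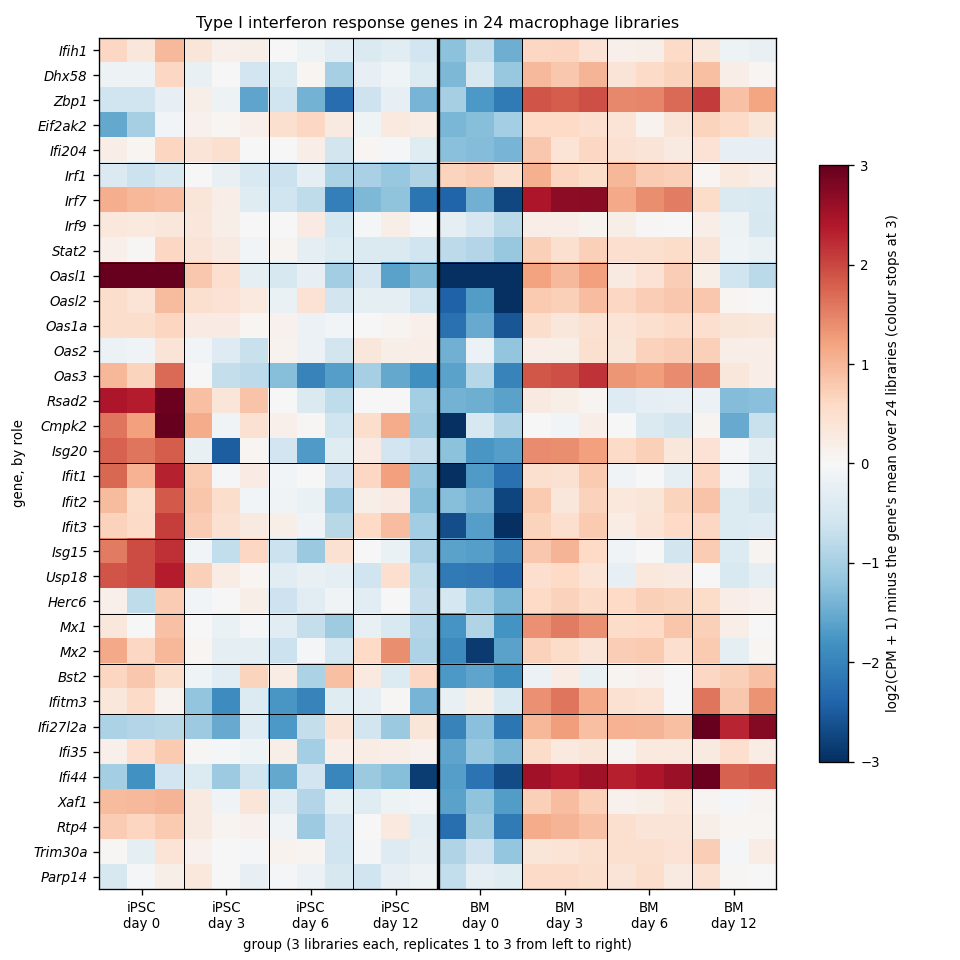
Level of each of the 34 interferon response genes (down the page, by role) in each of the 24 libraries (across), as log2(CPM + 1) relative to that gene's mean over the libraries, with the colour scale held within 3 log2 units of the mean. The iPSC day 0 and BM day 3 libraries are high for most genes, and the 3 BM day 0 libraries are low for nearly all.

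A gene was called changed when its Benjamini-Hochberg adjusted p over all 15000 genes was below 0.05 in edgeR's quasi-likelihood test. Changes are log2 fold changes ± SE with the later day or the iPSC source on top. In iPSC macrophages 1 gene rose and 9 fell of 34 by day 3 against day 0, where 11.2% of all genes tested rose and 8.14% fell. At day 6 against day 0 1 rose and 20 fell (14.3% and 11% of all genes), and at day 12 against day 0 1 rose and 17 fell (14% and 10.7%). The gene that rose each time was Eif2ak2. The median change of the 34 was -0.54 at day 3, -0.85 at day 6 and -0.74 at day 12, against 0.04, 0.09 and 0.04 for all genes. Between day 12 and day 3 none rose and 6 fell (4.07% and 4.82% of all genes rose and fell), with a median of -0.36 against 0.01. The counts for day 3 and for day 12 against day 3 moved most with the processing. At day 3 there were 18 calls without scaling factors and 17 without a filter on low counts. At day 12 against day 3 there were 12 without the filter, of which 2 were rises, Oas2 (0.59, adjusted p = 0.036) and Ifitm3 (0.63, 0.018). There were 2 when only the groups compared were fitted and 3 without iPSC day 3 replicate 1. Mx2 was called a rise without iPSC day 12 replicate 3 (1.29, 0.022).

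In BM macrophages 32 of the 34 rose and none fell at day 3 against day 0, where 11.9% of all genes rose and 6.61% fell. The median change was 2.33 against 0.04 for all genes. Irf1 and Cmpk2 were not called. At day 6 against day 0 31 rose and none fell (12.7% and 6.89% of all genes), with a median of 1.78 against 0.04. At day 12 against day 0 30 rose and none fell (14.7% and 9.08%), with a median of 1.82 against 0.04. Between day 12 and day 3 1 gene, Ifi27l2a, rose and 9 fell (4.20% and 4.25% of all genes), with a median of -0.50 against 0.01. That last total of 10 calls was 17 without the filter on low counts, with a rise of Bst2 added (0.75, adjusted p = 5.6e-04), 5 without BM day 12 replicate 2, BM day 12 replicate 3 or BM day 3 replicate 1, and 6, all falls, without BM day 3 replicate 3.

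Before co-culture iPSC macrophages stood above BM macrophages for 27 genes and below for 1, Irf1, where 18.9% of all genes were higher and 17.1% lower. The median difference was 2.16 against 0.00 for all genes. The 6 genes not called at day 0 were Eif2ak2, Ifi27l2a, Ifi44, Ifitm3, Parp14 and Zbp1. After co-culture none of the 34 was called higher in iPSC macrophages in the fit of all 8 groups: 13 were lower at day 3 (8.94% of all genes higher, 8.92% lower), 17 at day 6 (6.99% and 6.23%) and 8 at day 12 (5.03% and 4.74%). The medians were -0.57 at day 3, -0.74 at day 6 and -0.49 at day 12, against -0.02, 0.01 and -0.03 for all genes. The 8 lower at day 12 were Ifi27l2a, Ifi44, Ifitm3, Irf1, Irf7, Mx1, Oas3 and Zbp1. Without scaling factors the counts of lower calls were 20 at day 3 and 17 at day 12, and without the filter on low counts 12 were lower at day 12. At day 6 the count was 10 without BM day 6 replicate 2 and 11 without BM day 6 replicate 3. Other settings called 2 genes higher in iPSC macrophages. Rsad2 was called at day 3 without the filter (0.56, adjusted p = 0.027) and in the fit of the groups compared (0.57, 0.030). At day 12 it was called without the filter (0.59, 0.027), without BM day 12 replicate 1 (1.02, 0.014) and without iPSC day 12 replicate 3 (0.85, 0.033). Cmpk2 was called at day 12 without the filter (1.07, 1.0e-04).

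The difference between the sources in the change itself was tested as an interaction, the change in iPSC macrophages minus the change in BM macrophages. It was negative and called for 33 of the 34 genes from day 0 to day 3, all but Irf1, where 9.03% of all genes had a positive and 11.5% a negative call. From day 0 to day 12 it was negative and called for 30, all but Cmpk2, Eif2ak2, Irf1 and Irf9 (9.07% and 11% of all genes). None of the 34 had a positive call in either. At day 3 the call of Eif2ak2 was lost without any of 8 of the 12 libraries (-0.43, adjusted p = 0.250, without iPSC day 0 replicate 3) and in the fit of the groups compared (-0.93, 0.090). The call of Cmpk2 was lost without any of 4 libraries (0.052 to 0.105) and that of Parp14 without iPSC day 0 replicate 3 (-0.74, 0.053). At day 12 the call of Oas2 was lost without any of 7 libraries (0.051 to 0.110) and in the fit of the groups compared (-1.03, 0.074), and that of Parp14 without any of 4 libraries (0.059 to 0.072). The median interaction was -3.04 to day 3 and -2.84 to day 12, against -0.01 and -0.02 for all genes.

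Among the transcription factors, Irf7, which drives interferon production once induced, moved most. It measured 309, 293 and 279 CPM at day 0, 188, 167 and 112 at day 3, 95.8, 86.1 and 34.3 at day 6, and 56.2, 62.2 and 31.1 at day 12 in iPSC macrophages. In BM macrophages it measured 26.6, 52.5 and 21.2 CPM at day 0, 784, 936 and 962 at day 3, 320.1, 384 and 421 at day 6, and 212, 107 and 106 at day 12. The 3 BM day 3 libraries were the highest of all 24, and the iPSC day 0 libraries lay above every later iPSC library. At day 12 against day 0 Irf7 fell by 2.56 ± 0.38 in iPSC macrophages (adjusted p = 4.8e-05), while at day 3 against day 0 it rose by 4.74 ± 0.42 in BM macrophages (7.2e-08). Between day 12 and day 3 it fell by 1.65 ± 0.37 in iPSC and fell by 2.66 ± 0.38 in BM macrophages. Its difference between sources was 3.13 ± 0.39 at day 0 and -2.52 ± 0.38 at day 3. At day 12 it was -1.51 ± 0.37, a call that was lost without BM day 12 replicate 1 (-1.10, adjusted p = 0.089) or iPSC day 12 replicate 3 (-1.22, 0.056).

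Stat2 and Irf9, both parts of ISGF3, moved less. Stat2 measured 164, 151 and 229 CPM at day 0, 195, 179 and 139.6 at day 3, 155, 120.04 and 111 at day 6, and 109, 108 and 98.1 at day 12 in iPSC macrophages. In BM macrophages Stat2 measured 84.8, 80.6 and 66.7 CPM at day 0, 241, 206 and 245 at day 3, 209, 205 and 218 at day 6, and 194, 135 and 129 at day 12. All later BM libraries were above the day 0 ones, and the iPSC day 12 libraries were below those of day 0. Stat2 fell by 0.78 ± 0.18 in iPSC macrophages and rose by 0.98 ± 0.18 in BM macrophages at day 12 against day 0, and rose by 1.58 ± 0.18 in BM macrophages at day 3. Irf9 measured 127, 126 and 129.6 CPM at day 0, 129, 115 and 102 at day 3, 101, 122 and 70.2 at day 6, and 99.2, 116 and 98.9 at day 12 in iPSC macrophages. In BM macrophages it measured 83.1, 71.5 and 57.7 CPM at day 0, 116, 117 and 109 at day 3, 115, 104 and 102 at day 6, and 117, 91.6 and 72.8 at day 12. The iPSC day 6 and day 12 libraries were all below those of day 0, but the change was not called, at -0.28 ± 0.18 on day 12. The BM day 3 and day 6 libraries were all above those of day 0 and the day 12 libraries overlapped with them, and Irf9 rose by 0.69 ± 0.18 at day 3. At day 0 its iPSC libraries were above all BM libraries (0.85 ± 0.18).

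Irf1, which interferon gamma also induces strongly, did not follow the others. It measured 58.99, 50.7 and 57.05 CPM at day 0, 80.97, 68.5 and 57.9 at day 3, 50.8, 66.2 and 41.3 at day 6, and 40.3, 36.01 and 42.4 at day 12 in iPSC macrophages. In BM macrophages Irf1 measured 128, 134 and 112 CPM at day 0, 169, 126 and 118 at day 3, 162, 137 and 133 at day 6, and 83.8, 98.8 and 92.5 at day 12. It was the 1 gene lower in iPSC than in BM macrophages at day 0, with a difference of -1.17 ± 0.17 (7.9e-06). It stayed lower at day 3 (-0.99 ± 0.17), day 6 (-1.45 ± 0.17) and day 12 (-1.21 ± 0.17), with no overlap of the sources on any day. Against day 0 its BM changes were 0.14 ± 0.17 at day 3, 0.21 ± 0.17 at day 6 and -0.45 ± 0.17 at day 12.

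All 5 sensor and kinase genes rose in BM macrophages on days 3, 6 and 12, by between 1.14 and 3.54 log2 units. In iPSC macrophages 1 rose and 1 fell by day 12. Eif2ak2, the kinase known as PKR that stops translation when it binds double-stranded RNA, measured 21.1, 30.9 and 58.8 CPM at day 0, 68.3, 65.5 and 69.5 at day 3, 88.6, 96.4 and 75.96 at day 6, and 57.4, 77.5 and 73.6 at day 12 in iPSC macrophages. In BM macrophages Eif2ak2 measured 23.6, 25.4 and 30.5 CPM at day 0, 95.4, 94.9 and 88.7 at day 3, 83.4, 68.1 and 82.5 at day 6, and 101, 93.99 and 80.8 at day 12. It was higher in every later library than in any day 0 library of its own source, except iPSC day 12 replicate 1, which lay just under iPSC day 0 replicate 3. Its rise in iPSC macrophages was 1.23 ± 0.23 at day 6 and 0.91 ± 0.23 at day 12, and in BM macrophages 1.56 ± 0.24 at day 6 and 1.79 ± 0.24 at day 12. The iPSC call at day 12 was lost when only the groups compared were fitted (0.95, adjusted p = 0.090). The iPSC day 3 change of 0.88 ± 0.23 was lost in that fit too (0.91, 0.102) and without iPSC day 0 replicate 1 (0.59, 0.061) or replicate 2 (0.76, 0.052).

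Ifih1, the cytoplasmic RNA sensor MDA5, measured 114, 93.3 and 146 CPM at day 0, 94.9, 81 and 82.7 at day 3, 73.9, 65.9 and 58.3 at day 6, and 54.4, 57.4 and 49.1 at day 12 in iPSC macrophages. In BM macrophages Ifih1 measured 30.5, 44.3 and 25.9 CPM at day 0, 113, 116 and 100.02 at day 3, 82.1, 82.4 and 109 at day 6, and 93.7, 65.3 and 63.1 at day 12. It fell by 1.13 ± 0.20 in iPSC macrophages at day 12 and rose by 1.14 ± 0.20 in BM macrophages, so that its source difference was 1.81 ± 0.20 at day 0 and -0.47 ± 0.20 at day 12. Ifi204, a member of the DNA-sensing p200 family, measured 266, 242 and 363 CPM at day 0, 306, 324 and 234 at day 3, 229, 269 and 159.6 at day 6, and 241, 227 and 179 at day 12 in iPSC macrophages. In BM macrophages Ifi204 measured 97.6, 93.8 and 88.3 CPM at day 0, 409, 309.8 and 359 at day 3, 320.3, 304 and 281 at day 6, and 313, 196 and 195 at day 12. Its rise in BM macrophages was 1.95 ± 0.21 at day 3 and its iPSC change was -0.43 ± 0.20 at day 12. Its level is uncertain because 29.6% of its 51-base windows also occur in other genes. Zbp1, a sensor of left-handed nucleic acid that can trigger cell death, had 5.17 to 33.5 CPM in iPSC libraries over all days, against 5.99 to 14.2 CPM at day 0 and 54.7 to 128 CPM on later days in BM libraries. It was lower in iPSC macrophages at day 3 (-2.26 ± 0.45), day 6 (-2.92 ± 0.47) and day 12 (-2.22 ± 0.45). Dhx58, the helicase LGP2 that tunes RNA sensing, rose by 1.89 ± 0.27 in BM macrophages at day 3, against a change of -0.40 ± 0.26 in iPSC macrophages.

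The OAS proteins sense or mimic the sensing of double-stranded RNA, and Rsad2, Cmpk2 and Isg20 act on nucleotides or viral RNA. All 8 genes of this group were higher in iPSC than in BM macrophages at day 0, the call for Oas2 being lost without iPSC day 0 replicate 3 (0.69, adjusted p = 0.052). By day 12 7 of the 8 had fallen in iPSC macrophages, and 6 had risen in BM macrophages. Oasl1, an OAS-like protein known in mice to restrain the translation of Irf7, had the largest change of the 34 at day 3 in each source. It measured 233, 247 and 230.3 CPM at day 0, 34.9, 28.04 and 15.8 at day 3, 13.6, 16.4 and 8.88 at day 6, and 13.5, 5.78 and 7.08 at day 12 in iPSC macrophages. In BM macrophages Oasl1 measured 0.902, 0.812 and 1.30 CPM at day 0, 46.4, 39.3 and 47.2 at day 3, 23.6, 26.9 and 33.3 at day 6, and 22.3, 12.6 and 10.8 at day 12. The 3 iPSC day 0 libraries stood far above the other 21, and the 3 BM day 0 libraries lay between 0.812 and 1.30 CPM, below all the rest. It fell by 3.17 ± 0.31 by day 3 and fell by 4.20 ± 0.33 by day 6 in iPSC macrophages and rose by 5.45 ± 0.41 by day 3 in BM macrophages. It differed between the sources by 7.87 ± 0.42 at day 0 (8.8e-13) and by -0.80 ± 0.31 at day 12.

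Rsad2, or viperin, which makes a chain-terminating nucleotide, measured 613, 585 and 873 CPM at day 0, 213, 146 and 207 at day 3, 115, 83.7 and 66.98 at day 6, and 113, 114 and 55.8 at day 12 in iPSC macrophages. In BM macrophages Rsad2 measured 41.8, 40.2 and 36.6 CPM at day 0, 137, 128 and 121 at day 3, 86.5, 91.8 and 94.9 at day 6, and 101, 45.5 and 47.4 at day 12. Every iPSC day 0 library was above all later iPSC and all BM libraries, and BM libraries were highest at day 3. It fell by 2.96 ± 0.29 in iPSC macrophages at day 6, rose by 1.70 ± 0.28 in BM macrophages at day 3, and its BM change at day 12 was 0.71 ± 0.28 (0.071). Cmpk2, its neighbour on chromosome 12, a nucleotide kinase, had 57.8, 87.1 and 18.3 CPM at day 12 and 122, 95.2 and 359 CPM at day 0 in iPSC libraries. Its falls in iPSC macrophages were 2.37 at day 6 and 1.82 at day 12 on the log2 scale, and iPSC day 0 replicate 3 moved both most. Without it both calls were lost, with changes of -1.55 (adjusted p = 0.089) and -1.0 (0.282). The day 12 call was also lost without iPSC day 12 replicate 1 (-1.87, 0.096) or replicate 3 (-1.40, 0.140) and in the fit of the groups compared (-1.77, 0.081).

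**Figure D2:**
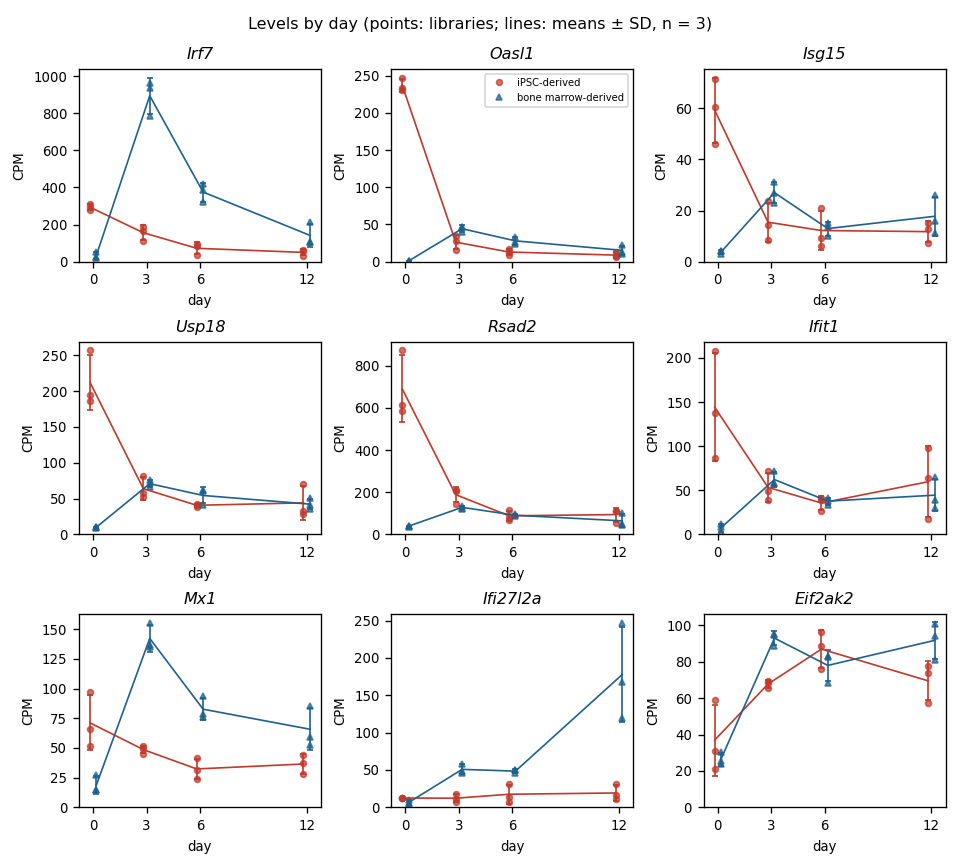
Level in CPM (linear axis from 0) against day for 9 interferon response genes, with 1 point per library, lines through the group means and bars of 1 SD (n = 3), iPSC macrophages as circles and BM macrophages as triangles. For most genes shown the iPSC line is highest at day 0 and the BM line at day 3.

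Oas3, which makes the short adenylate chains that activate RNase L, fell by 2.64 ± 0.36 in iPSC macrophages at day 12 and rose by 3.44 ± 0.38 in BM macrophages at day 3. It was also lower in iPSC than in BM macrophages on every co-culture day, by -2.47 ± 0.36 at day 3, -3.0 ± 0.37 at day 6 and -2.23 ± 0.36 at day 12. Oas1a, of the same enzyme family, had 103, 109 and 114 CPM at day 12 and 149, 149 and 161 CPM at day 0 in iPSC libraries. In BM libraries it had 146, 133 and 129.8 CPM at day 12 and 21.1, 35.5 and 16.4 CPM at day 0. It rose by 2.48 ± 0.19 in BM macrophages, with no overlap. The iPSC change of -0.49 ± 0.17 was lost without any 1 of the 6 libraries compared (adjusted p between 0.056 and 0.120), without the filter (0.093) and in the fit of the groups compared (0.054). Its level is uncertain, since 57.0% of its 51-base windows occur in other genes, Oas1g and Oas1b among them. Oasl2, the other OAS-like gene, fell by 1.03 ± 0.27 in iPSC and rose by 2.63 ± 0.29 in BM macrophages at day 12. Isg20, an RNA exonuclease, fell by 2.53 ± 0.58 in iPSC macrophages at day 3, where its libraries held 4.82, 0.241 and 6.09 CPM against 22.2, 19.7 and 22.9 CPM at day 0. It rose by 3.56 ± 0.63 in BM macrophages at day 3. Oas2 was the member of this group with no iPSC fall: its iPSC change was 0.18 ± 0.25 at day 12, and it rose by 1.23 ± 0.25 in BM macrophages.

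The IFIT proteins bind viral RNA ends and lie together on chromosome 19. All 3 genes rose in BM macrophages at days 3, 6 and 12, and all 3 were higher in iPSC than in BM macrophages at day 0. Ifit1 measured 138, 86.5 and 208 CPM at day 0, 71.4, 39.5 and 49.1 at day 3, 38.9, 41.5 and 26.4 at day 6, and 63.9, 97.7 and 17.6 at day 12 in iPSC macrophages. In BM macrophages Ifit1 measured 2.84, 12.1 and 7.95 CPM at day 0, 58.2, 56.9 and 71.4 at day 3, 38.2, 41.6 and 33.4 at day 6, and 64.6, 39.1 and 29.9 at day 12. The iPSC day 12 libraries spread widely, replicate 2 lying above the lowest day 0 library, and all BM libraries of later days were above those of day 0. It fell by 2.02 ± 0.49 at day 6 in iPSC macrophages, its iPSC day 12 change was -1.27 ± 0.48 (0.058). In BM macrophages it rose by 3.02 ± 0.53 at day 3 and rose by 2.54 ± 0.53 at day 12. Its iPSC fall of 1.43 ± 0.48 at day 3 was lost without any 1 library other than iPSC day 0 replicate 2 (changes of -1.07 to -1.69, adjusted p 0.051 to 0.176).

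Ifit2 measured 301, 226 and 558 CPM at day 0, 275, 223 and 145 at day 3, 144, 134 and 74.3 at day 6, and 176, 185 and 63.2 at day 12 in iPSC macrophages. In BM macrophages Ifit2 measured 63.5, 56.5 and 22.01 CPM at day 0, 266, 196 and 249 at day 3, 193, 199 and 245 at day 6, and 279, 116 and 106 at day 12. Replicate 3 was the highest iPSC library at day 0 and the lowest at days 3, 6 and 12. Its iPSC fall at day 12 of 1.36 ± 0.46 was lost without 5 of the 6 libraries in turn, most of all without iPSC day 0 replicate 3 (-0.90, adjusted p = 0.210), and in the fit of the groups compared (-1.31, 0.073). It rose by 2.32 ± 0.48 in BM macrophages at day 3, and its BM rise of 1.82 ± 0.48 at day 12 was lost without BM day 12 replicate 1 (1.22, 0.079). Ifit3 had 158, 198 and 49.9 CPM at day 12 and 169, 155 and 444 CPM at day 0 in iPSC libraries. In BM libraries it had 159.6, 78.4 and 79.1 CPM at day 12 and 15.6, 32.4 and 9.77 CPM at day 0. The iPSC days overlapped and the BM days did not. Its iPSC change was -0.92 ± 0.48, and its BM rise was 2.45 ± 0.51, or 3.06 without BM day 0 replicate 2. Ifit3 is uncertain, as 50.8% of its 51-base windows occur in other genes, including Ifit3b.

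In the ISG15 pathway Isg15 is a ubiquitin-like protein joined to other proteins. Usp18 removes it and also blocks the interferon receptor, and Herc6 is the mouse ligase that attaches it. Isg15 measured 46.1, 60.5 and 71.4 CPM at day 0, 14.2, 8.55 and 23.7 at day 3, 9.26, 6.32 and 20.99 at day 6, and 15.1, 12.98 and 7.18 at day 12 in iPSC macrophages. In BM macrophages Isg15 measured 4.25, 4.06 and 2.996 CPM at day 0, 26.9, 31.2 and 23 at day 3, 13.7, 15.2 and 9.94 at day 6, and 26.2, 11.1 and 16.01 at day 12. The iPSC day 0 libraries were above all other 21 libraries, and the BM day 0 libraries were below them all. It fell by 2.34 ± 0.41 in iPSC macrophages at day 12, rose by 2.84 ± 0.44 in BM macrophages at day 3 and rose by 2.23 ± 0.43 at day 12. The source difference was 3.97 ± 0.45 at day 0 and -0.60 ± 0.40 at day 12.

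Usp18 measured 186, 194 and 257 CPM at day 0, 81.8, 57.9 and 51.8 at day 3, 38.8, 42.7 and 40.5 at day 6, and 32.6, 70.9 and 28.7 at day 12 in iPSC macrophages. In BM macrophages Usp18 measured 10.7, 10.4 and 9.12 CPM at day 0, 71.1, 75.7 and 65.7 at day 3, 41.5, 61.6 and 59.97 at day 6, and 50.4, 35.99 and 40.4 at day 12. As with Isg15, the iPSC day 0 libraries were the highest and the BM day 0 libraries the lowest of all 24, without overlap. Usp18 fell by 1.73 ± 0.25 in iPSC macrophages at day 3, rose by 2.81 ± 0.27 in BM macrophages at day 3, and differed between the sources by 4.39 ± 0.29 at day 0 and 0.06 ± 0.25 at day 12. Herc6 measured 22.1, 27.9 and 16.7 CPM at day 12 and 31.1, 15.9 and 48.1 CPM at day 0 in iPSC libraries. In BM libraries it had 40.8, 31.9 and 30.7 CPM at day 12 and 18.9, 13.1 and 10.03 CPM at day 0. Its iPSC libraries overlapped between these days (-0.51 ± 0.29) and its BM libraries did not (1.30 ± 0.29). A share of 23.8% of the Herc6 windows occurs in another gene model.

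The Mx GTPases, which form rings around viral ribonucleoproteins, lie together on chromosome 16. Mx1 measured 65.6, 51.2 and 96.7 CPM at day 0, 51.3, 45.1 and 49.4 at day 3, 41.4, 31.4 and 24.1 at day 6, and 44.1, 37.7 and 27.6 at day 12 in iPSC macrophages. In BM macrophages Mx1 measured 14.4, 27.3 and 14.2 CPM at day 0, 137, 155 and 135 at day 3, 75.9, 78.5 and 93.5 at day 6, and 85.5, 59.6 and 52.2 at day 12. The BM day 3 libraries were the highest of all 24. Mx1 rose by 2.93 ± 0.27 in BM macrophages at day 3 and fell by 1.11 ± 0.25 between day 12 and day 3, and in iPSC macrophages it fell by 1.14 ± 0.26 at day 6. Its iPSC fall of 0.97 ± 0.26 at day 12 was lost without iPSC day 0 replicate 3 (-0.68, adjusted p = 0.067) and in the fit of the groups compared (-0.92, 0.052). At day 12 its source difference of -0.85 ± 0.26 was lost in that fit (-0.82, 0.079) and without any of 4 libraries in turn, the weakest without BM day 12 replicate 1 (-0.62, 0.211).

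Mx2 measured 33.5, 23.3 and 30.6 CPM at day 0, 15.5, 11.8 and 11.8 at day 3, 9.13, 14.5 and 9.96 at day 6, and 23.01, 40.7 and 7.28 at day 12 in iPSC macrophages. In BM macrophages Mx2 measured 3.22, 1.16 and 4.17 CPM at day 0, 24.6, 22.3 and 19.8 at day 3, 25.3, 26.1 and 21.4 at day 6, and 26.4, 12 and 15.5 at day 12. Its iPSC day 12 libraries spanned the full range of the other iPSC days, with replicate 2 above every day 0 library, and its BM day 0 libraries were the lowest of all 24. Mx2 rose by 2.97 ± 0.47 and rose by 2.66 ± 0.47 in BM macrophages at days 3 and 12, and its iPSC change at day 12 was -0.30 ± 0.41.

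Of the membrane restriction factors, Bst2 (tetherin) holds budding virus at the cell surface and Ifitm3 blocks viral fusion in endosomes. Bst2 measured 439, 492 and 404 CPM at day 0, 256, 221 and 446 at day 3, 326, 144 and 526 at day 6, and 345, 209 and 433 at day 12 in iPSC macrophages. In BM macrophages Bst2 measured 84.03, 93.4 and 77.5 CPM at day 0, 247, 326 and 241 at day 3, 296, 305 and 278 at day 6, and 434, 459 and 514 at day 12. The iPSC libraries overlapped between days, with a change of -0.44 ± 0.32 at day 12, while the BM libraries were highest at day 12, with a rise of 2.46 ± 0.34. Its source difference was 2.39 ± 0.34 at day 0 and -0.51 ± 0.32 at day 12.

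Ifitm3 measured 156, 183 and 132 CPM at day 0, 54.1, 32.4 and 91.7 at day 3, 36.2, 29.9 and 96.3 at day 6, and 102, 127 and 46.3 at day 12 in iPSC macrophages. In BM macrophages Ifitm3 measured 105, 139.9 and 88.97 CPM at day 0, 318, 379 and 270.3 at day 3, 169, 163 and 121 at day 6, and 377, 217 and 316 at day 12. The 2 sources overlapped at day 0 (0.50 ± 0.41) and every iPSC library lay below every BM library at days 3, 6 and 12. Its source difference was -2.44 ± 0.43 at day 3 and -1.72 ± 0.42 at day 12, and the second was lost without BM day 12 replicate 1 (-1.53, adjusted p = 0.054) or iPSC day 12 replicate 3 (-1.37, 0.066). Its BM rise of 1.54 ± 0.42 at day 3 was lost without BM day 0 replicate 1 (1.52, 0.061), BM day 0 replicate 3 (1.43, 0.071) or BM day 3 replicate 2 (1.40, 0.052). At day 12 the BM rise of 1.45 ± 0.42 was lost without BM day 0 replicate 1 (1.40, 0.070), BM day 0 replicate 3 (1.31, 0.083) or BM day 12 replicate 1 (1.26, 0.067).

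Among the 7 other genes all 7 rose in BM macrophages at days 3, 6 and 12, and 2, Xaf1 and Rtp4, fell in iPSC macrophages by day 12. Ifi27l2a, a small mitochondrial protein of the Ifi27 family, measured 11.8, 12.5 and 12.9 CPM at day 0, 10.8, 7.70 and 17.9 at day 3, 6.50, 14.3 and 31.5 at day 6, and 15.9, 10.4 and 31.1 at day 12 in iPSC macrophages. In BM macrophages Ifi27l2a measured 5.16, 9.51 and 4.56 CPM at day 0, 48.8, 58.1 and 45.4 at day 3, 50.2, 49.6 and 45.4 at day 6, and 246, 120.1 and 167 at day 12. Its 3 BM day 12 libraries were the highest of all 24, which sets it apart in time from the genes that were highest at day 3. It rose by 4.78 ± 0.50 in BM macrophages at day 12 against day 0. Its rise of 1.81 ± 0.43 against day 3 was lost without BM day 12 replicate 1 (1.5, adjusted p = 0.053) or BM day 3 replicate 3 (1.73, 0.055). Its source difference at day 12 was -3.21 ± 0.46 (4.9e-05).

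Ifi44, an interferon-induced protein of the cytoplasm, was the gene with the widest gap between the sources after co-culture. It measured 7.99, 4.16 and 11.3 CPM at day 0, 12.6, 7.58 and 11.02 at day 3, 5.25, 11.3 and 3.71 at day 6, and 7.43, 6.54 and 1.52 at day 12 in iPSC macrophages. In BM macrophages Ifi44 measured 4.77, 2.90 and 1.82 CPM at day 0, 104, 95.7 and 104 at day 3, 90.7, 97.1 and 109 at day 6, and 138, 61.6 and 64.6 at day 12. The iPSC libraries stayed at or below 12.6 CPM on all days and the BM libraries of days 3, 6 and 12 were all at 61.6 CPM or more. It rose by 4.99 ± 0.53 in BM macrophages at day 3, against an iPSC change of 0.42 ± 0.46, and the source difference was -3.28 ± 0.47 at day 3 and -4.10 ± 0.50 at day 12.

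Xaf1, an antagonist of the apoptosis inhibitor XIAP, measured 91.4, 91.5 and 95.01 CPM at day 0, 55.9, 43.4 and 60.3 at day 3, 37.4, 24.7 and 37.7 at day 6, and 35.95, 41.5 and 43.6 at day 12 in iPSC macrophages. In BM macrophages Xaf1 measured 14.6, 19.6 and 13.8 CPM at day 0, 76.5, 88.5 and 77.5 at day 3, 50.9, 52.9 and 58.1 at day 6, and 49.6, 45.4 and 48.9 at day 12. Its replicates lay close together, the iPSC day 0 libraries were the highest of all 24 and the BM day 0 libraries the lowest. Xaf1 fell by 1.20 ± 0.17 in iPSC and rose by 1.58 ± 0.18 in BM macrophages at day 12. Rtp4, a chaperone of membrane receptors, had 183, 228 and 149 CPM at day 12 and 315, 290.3 and 317 CPM at day 0 in iPSC libraries. In BM libraries it had 209, 193 and 191 CPM at day 12 and 37.8, 88.3 and 41.3 CPM at day 0. Neither source overlapped between the days. It rose by 1.82 ± 0.24 in BM macrophages, and its iPSC fall of 0.72 ± 0.24 was lost without any of 4 of the 6 libraries (adjusted p 0.065 to 0.121). The rise in BM macrophages at day 3 was 1.81 ± 0.24 for Ifi35, 1.30 ± 0.20 for Trim30a, a ligase of the TRIM family, and 1.01 ± 0.19 for Parp14, which adds ADP-ribose to proteins. The iPSC changes on that day were -0.55 ± 0.23 for Ifi35, -0.05 ± 0.20 for Trim30a and 0.12 ± 0.18 for Parp14.

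Read jointly at day 12 against day 0, 14 genes fell in iPSC and rose in BM macrophages, namely Ifih1, Ifit2, Irf7, Isg15, Isg20, Mx1, Oas1a, Oas3, Oasl1, Oasl2, Rtp4, Stat2, Usp18 and Xaf1. Eif2ak2 rose in both, and Cmpk2, Irf1 and Rsad2 fell in iPSC macrophages and were not called in BM macrophages. A further 15 rose in BM macrophages and were not called in iPSC macrophages, and Irf9 was called in neither. The joint counts have no share of all genes beside them and describe the interferon genes chosen here only. The interaction from day 0 to day 12 was -8.67 for Oasl1, -4.64 for Irf7, -4.57 for Isg15, -4.33 for Usp18, -4.16 for Ifi27l2a, -3.81 for Ifit1 and -3.58 for Rsad2. Calls at day 12 that were lost without at least 1 library were those of Cmpk2, Ifit2, Irf1, Mx1, Oas1a and Rtp4 in iPSC macrophages and those of Ifit2, Ifitm3, Isg20 and Parp14 in BM macrophages. Of these the rise of Isg20 became 1.88 (adjusted p = 0.052) and that of Parp14 0.46 (0.111) without BM day 12 replicate 1. The fall of Irf1 in iPSC macrophages (-0.49 ± 0.17) was lost without any of 4 libraries (adjusted p 0.077 to 0.140), without the filter (0.120) and in the fit of the groups compared (0.118).

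**Figure D3:**
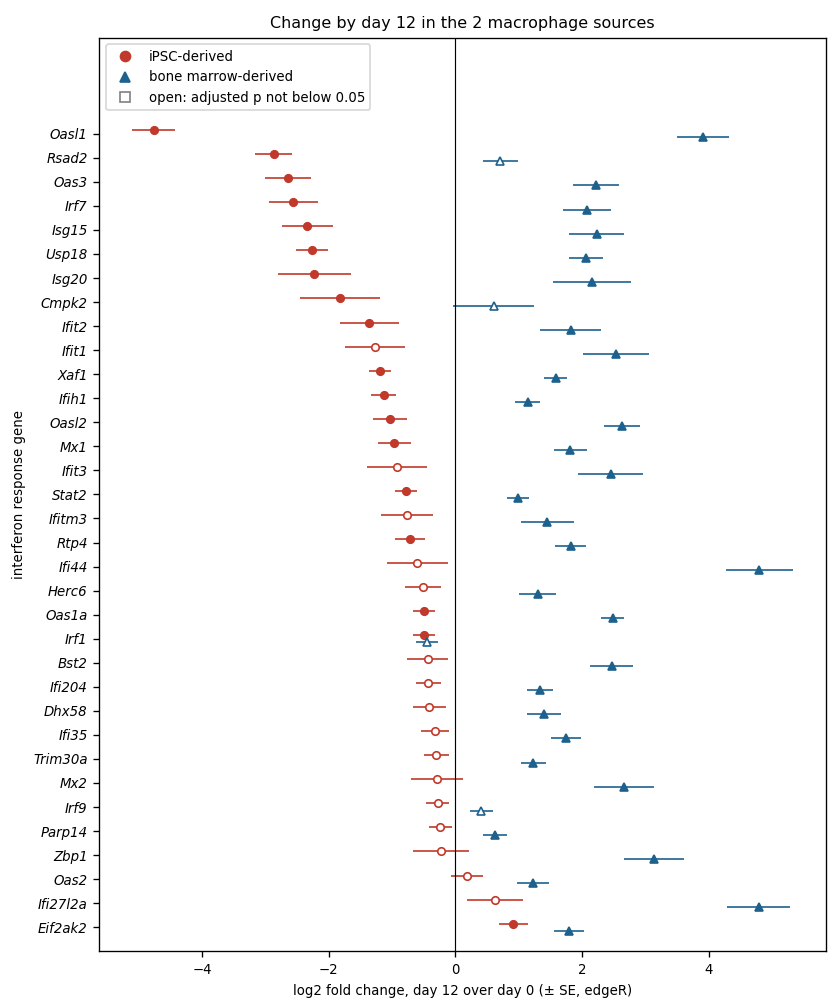
Log2 fold change at day 12 against day 0 for each of the 34 genes, iPSC macrophages as circles and, just under them, BM macrophages as triangles, with bars of 1 SE and filled points for adjusted p below 0.05. BM points lie above 0 for all genes but Irf1, and iPSC points lie below 0 for most, with Oasl1 lowest at -4.76.

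The genes with the largest differences between the sources were not the same at day 0 and at day 12. Those with the largest day 0 differences were Oasl1, Usp18, Ifit1, Rsad2 and Isg15, whose day 12 differences were -0.80 ± 0.31, 0.06 ± 0.25, 0.43 ± 0.47, 0.55 ± 0.27 and -0.60 ± 0.40, none of them called. The genes with the largest day 12 differences were Ifi44, Ifi27l2a, Oas3 and Zbp1, whose day 0 differences were 1.30 ± 0.51, 0.94 ± 0.47, 2.63 ± 0.36 and 1.14 ± 0.46. Of these day 0 differences only that of Oas3 was called in the fit of all 8 groups. Irf1, Irf7, Mx1 and Oas3 were called on both days. Irf1 was lower in iPSC macrophages each time, and the others were higher at day 0 and lower at day 12.

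**Figure D4:**
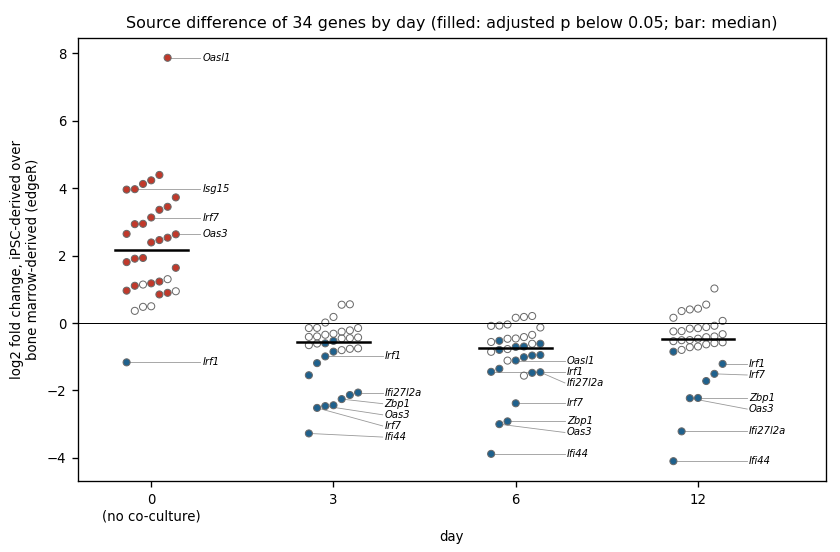
Log2 difference of iPSC over BM macrophages for each of the 34 genes at days 0, 3, 6 and 12, with filled points for adjusted p below 0.05 and a bar at the median. At day 0 all but Irf1 lie above 0, and on days 3, 6 and 12 every filled point lies below 0.

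Levels can be compared between genes only per length, here as mean CPM per kilobase of exon. On that scale Bst2 had the highest level of the 34 in iPSC macrophages on each day, 583 at day 0, 403 at day 3, 434 at day 6 and 431 at day 12. It also had the highest in BM macrophages at day 6 (384) and day 12 (614). Ifitm3 had the highest level in BM macrophages at day 0 (164) and day 3 (476). Irf7 ranked 3rd in BM macrophages at day 3 with 296, and Ifi27l2a ranked 3rd at day 12 with 384.

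The genes upstream of the 34 were read from lists of the pathway. Of 9 interferon ligand genes, 6 (Ifna1, Ifna2, Ifna4, Ifne, Ifnl2 and Ifnl3) had 0 counts in all 24 libraries, where 3 counts, the limit that a count of 0 allows, correspond to 0.254 to 0.514 CPM. Interferon alpha genes are near-identical copies, and reads that map to several places were not counted. Ifnb1, the interferon beta gene, had 6 counts in all, 4 in 1 iPSC library of day 0 and 2 in 1 iPSC library of day 3. Ifng had 1 count and Ifnk 26 counts in 10 libraries, and none of the 9 could be tested.

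Of the 5 receptor genes tested, 3 (Ifnar1, Ifnar2 and Ifngr1) rose and none fell in iPSC macrophages at days 3, 6 and 12. Of all genes 11.2%, 14.3% and 14% rose on these days, and 8.14%, 11% and 10.7% fell. In BM macrophages 3 of the 5 rose and 1 fell at day 3, where 11.9% of all genes rose and 6.61% fell. At day 6 2 rose and none fell (12.7% and 6.89%), and at day 12 none rose and 1 fell (14.7% and 9.08%). With 1 library left out, the BM rises were 1 to 3 at day 3 and 0 to 1 at day 6. Ifnar2, the signalling chain of the type I receptor, measured 109, 146 and 108 CPM at day 0, 262, 263 and 246 at day 3, 193, 177 and 227 at day 6, and 225, 142 and 230.4 at day 12 in iPSC macrophages. In BM macrophages Ifnar2 measured 269, 229.9 and 254 CPM at day 0, 448, 391.6 and 397 at day 3, 424, 349.6 and 359 at day 6, and 285, 284 and 271 at day 12. Its iPSC day 0 libraries were below all BM libraries and below all later iPSC libraries except day 12 replicate 2, which overlapped with them. It rose by 1.09 ± 0.16 in iPSC macrophages at day 3 and rose by 0.72 ± 0.16 at day 12, and at day 0 its source difference was -1.06 ± 0.16. Ifnar1, the other chain, rose by 1.12 ± 0.20 in iPSC macrophages at day 3 and rose by 0.98 ± 0.20 at day 6. Ifngr1, of the interferon gamma receptor, rose by 1.32 ± 0.14 at day 12 in iPSC macrophages and was lower than in BM macrophages at day 0 (-1.62 ± 0.14).

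Of 14 genes that sense nucleic acid or induce interferon, 4 rose and 3 fell in iPSC macrophages at day 12, where 14% of all genes rose and 10.7% fell. The 4 rises became 7 without iPSC day 12 replicate 3. In BM macrophages 5 rose and 1 fell at day 3, where 11.9% of all genes rose and 6.61% fell. The RNA sensor Ddx58 (RIG-I) fell by 1.27 ± 0.27 and the kinase Ikbke fell by 0.83 ± 0.17 in iPSC macrophages, whereas Irf8 rose by 1.25 ± 0.17, Mavs rose by 0.71 ± 0.17 and Tlr7 rose by 1.22 ± 0.20. In BM macrophages at day 3 Tlr3 rose by 2.42 ± 0.41 and Ddx58 rose by 1.67 ± 0.27, and Tlr7 fell by 0.82 ± 0.20. Of 5 negative regulators 2, Socs3 and Pias1, rose and none fell in iPSC macrophages at day 12, with 1 to 3 rises when 1 library was left out. In BM macrophages 2, Socs3 and Ptpn6, rose and none fell at day 3. The shares of all genes are those given above for the same comparisons. Socs3, which blocks Jak kinases, rose by 3.41 ± 0.61 in iPSC macrophages at day 12 and rose by 2.40 ± 0.57 in BM macrophages at day 3. Its iPSC changes at day 3 (-0.26 ± 0.61) and day 6 (0.97 ± 0.59) were not called.

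Of 57 further interferon-stimulated genes, 56 were tested. In iPSC macrophages 5 rose and 6 fell at day 3, where 11.2% of all genes rose and 8.14% fell. The 6 falls were 12 without scaling factors, 10 without the filter and 3 in the fit of the groups compared, and the 5 rises were 3 without iPSC day 0 replicate 2. At day 6 18 fell and none rose (11% and 14.3% of all genes), and at day 12 18 fell and 1, Ifitm1, rose (10.7% and 14%). The medians were -0.38 and -0.47 against 0.09 and 0.04 for all genes. The call of Ifitm1 was lost without iPSC day 0 replicate 1 (2.33, adjusted p = 0.066). In BM macrophages 41 rose and none fell at day 3 (11.9% and 6.61% of all genes), and 33 rose and 4 fell at day 12 (14.7% and 9.08%). The medians were 1.27 and 0.86 against 0.04 on both days. At day 0 31 were higher and 7 lower in iPSC than in BM macrophages (18.9% and 17.1% of all genes), with a median of 0.93 against 0.00. At day 12 1 was higher and 17 were lower (5.03% and 4.74% of all genes). That count of lower calls was 9 without BM day 12 replicate 1, 10 without iPSC day 12 replicate 2 and 11 when only the groups compared were fitted. Cxcl10, a chemokine that attracts T cells, measured 135, 130.01 and 202 CPM at day 0, 24.5, 7.46 and 21.2 at day 3, 8.76, 2.48 and 5.57 at day 6, and 6.23, 7.68 and 4.05 at day 12 in iPSC macrophages. In BM macrophages it measured 3.35, 9.51 and 1.69 CPM at day 0, 8.75, 5.74 and 4.02 at day 3, 2.98, 2.88 and 4.33 at day 6, and 6.42, 1.98 and 9.89 at day 12. It fell by 4.70 ± 0.61 in iPSC macrophages at day 12 and differed by 4.98 ± 0.63 between the sources at day 0, and its BM change at day 3 was 0.33 ± 0.59. Ccl5, another chemokine for T cells, measured 0.644, 1.86 and 1.95 CPM at day 0, 401, 557 and 406 at day 3, 30.4, 30.5 and 25.6 at day 6, and 3.81, 2.48 and 4.05 at day 12 in BM macrophages. All 3 day 3 libraries were far above the other BM libraries, and it rose by 8.24 ± 0.63 at day 3.

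Of 11 tested genes linked more to interferon gamma, 2 fell and none rose in iPSC macrophages at day 12 (10.7% and 14% of all genes). They were Gbp2 (-2.08 ± 0.32) and Gbp3 (-2.29 ± 0.29), both GTPases of the guanylate-binding family. Both also fell in BM macrophages at day 12 (-1.13 ± 0.31 and -1.04 ± 0.28). On that day 4 of the 11 rose and 2 fell in BM macrophages, where 14.7% of all genes rose and 9.08% fell. In BM macrophages 5 rose and none fell at day 3 (11.9% and 6.61% of all genes). The largest rise was that of Nos2 (10.39 ± 1.39), which had 0 counts in the BM day 0 libraries. Igtp (1.86 ± 0.25) and Iigp1 (3.90 ± 0.65), GTPases that act on intracellular parasites, were also among the 5. At day 0 3 were higher and 2 lower in iPSC than in BM macrophages, where 18.9% of all genes were higher and 17.1% lower. Ciita, the activator of MHC class II genes, was 1 of the 2 lower (-5.07 ± 1.16).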

How the data were processed

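Total RNA from 24 cultures was amplified by SMARTSeq v2 and sequenced as paired 51-base reads, per the labels' protocols. Reads were aligned with STAR and counted with featureCounts, per the submitters' processing notes. The deposited unit is a raw count per gene: per the file headers, featureCounts 1.5.0-p1 counted fragments on GENCODE vM9, ignoring strand and leaving out multi-mapping fragments and those shared by several genes. Libraries held 5839316 to 11805478 counts. Some genes had few counts in their lowest library, 2 for Isg20, 7 for Oasl1, 10 for Mx2 and 14 for Ifi44. Counting error is not negligible there.

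Groups were taken from the labels. The 34 genes and the pathway lists were chosen with earlier results of these data known, and gene names were matched for 47224 of the 47643 identifiers. Genes were filtered with filterByExpr (minimum count 10, minimum total 15), leaving 15000. Levels are CPM computed from the counts with TMM-scaled library sizes; scaling factors moved the median of all genes by more than 0.1 in some comparisons, as given in the closing section. Changes were tested with edgeR 4.0.16 (R 4.3.3, limma 3.58.1), quasi-likelihood with robust dispersion, 1 fit over all 8 groups, and Benjamini-Hochberg adjustment within each comparison, called below 0.05. The procedure was tested on simulated data. SE is the change divided by the square root of its F statistic. P-values rest on the spread between libraries within groups, estimated over all 8 groups together and with information shared across genes. Values per library are given for up to 3 genes of each role with the lowest adjusted p at day 12 or between sources at day 0, for 12 listed genes, and for genes called against the direction of most; Cmpk2, Ifi44, Isg20 and Zbp1 were added after their values were seen. Alternatives were DESeq2 1.42.0, no scaling, no filter, only the groups compared, a replicate term and leaving out each library. Motifs and shared 51-base windows were searched with Python 3.11.15 in RefSeq promoters and the reference transcripts.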

Additional observations from a re-analysis of the deposited data

Results flagged for a closer look

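The change from day 0 differed between iPSC and BM macrophages by the interaction test for 33 of the 34 genes at day 3 and for 30 at day 12. All these calls were negative, where 11.5% and 11% of all genes had a negative call. Each interaction is also the later source difference minus that at day 0, so it is not independent of the day 0 difference. At day 3 the interaction, iPSC change minus BM change on the log2 scale, was -8.62 for Oasl1, -5.65 for Irf7, -4.78 for Isg15, -4.54 for Usp18, -4.45 for Ifit1 and -3.57 for Rsad2. It was -3.48 for Mx1, -3.01 for Ifi27l2a, -2.94 for Ifitm3, -1.96 for Ifi204, -1.66 for Stat2 and -0.83 for Irf9. At day 12 it was -8.67 for Oasl1, -4.64 for Irf7, -4.57 for Isg15, -4.33 for Usp18, -4.16 for Ifi27l2a and -3.81 for Ifit1. It was -3.58 for Rsad2, -2.78 for Mx1, -2.22 for Ifitm3, -1.77 for Stat2 and -1.76 for Ifi204.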

How the results depend on the processing

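No result for the 34 genes changed direction under any alternative run. The number of the 34 called at day 3 against day 0 in iPSC macrophages was 10, and it was 18 without scaling factors and 17 without the filter on low counts. At day 12 against day 3 in iPSC macrophages it was 6, and it was 12 without the filter (2 of them rises, where all 6 had been falls), 2 in the fit of only the groups compared and 3 without iPSC day 3 replicate 1. At day 12 against day 3 in BM macrophages it was 10, and it was 17 without the filter (2 rises and 15 falls), 5 without BM day 12 replicate 2, BM day 12 replicate 3 or BM day 3 replicate 1, and 6 without BM day 3 replicate 3. Between the sources the day 3 count of 13 was 20 without scaling factors, the day 6 count of 17 was 10 without BM day 6 replicate 2 and 11 without replicate 3, and the day 12 count of 8, all lower in iPSC macrophages, was 17 without scaling factors and 14 without the filter, of which 2 (Rsad2 and Cmpk2) were higher. The cause was not tested. With each library left out in turn, iPSC counts ranged over 7 to 9 at day 3, 16 to 21 at day 6, 12 to 19 at day 12 and 3 to 6 at day 12 against day 3. BM counts ranged over 31 to 32, 30 to 31, 26 to 32 and 5 to 10 in the same order. Source counts ranged over 27 to 30 at day 0, 10 to 14 at day 3, 10 to 15 at day 6 and 6 to 9 at day 12, and interaction counts over 30 to 33 to day 3 and 28 to 32 to day 12. Over the 34 genes and all comparisons, DESeq2 gained 22 calls and lost 2.

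Without scaling factors the median of all genes shifted by -0.18 at day 3 and -0.12 at day 12 in iPSC macrophages, by 0.13 at day 6 and 0.17 at day 12 in BM macrophages, by -0.20, -0.10 and -0.22 between the sources at days 3, 6 and 12, and by -0.27 and -0.30 in the interactions. Of all genes called between the sources at day 12, 25.2% were higher in iPSC macrophages without scaling and 51.5% with it, and at day 3 against day 0 in iPSC macrophages 37.7% of calls were rises without scaling and 58.0% with it.

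Libraries with the same replicate number were not shown to be paired: the correlation of their deviations from group means ranged from -0.05 to 0.16 within iPSC and from -0.02 to 0.04 within BM macrophages. For different replicate numbers the ranges were -0.21 to 0.11 and -0.05 to 0.04. The medians for the same and for different numbers were 0.03 and -0.02 within iPSC and 0.01 and -0.01 within BM macrophages. With a replicate block the count was 11 at day 3, 21 at day 6 and 17 at day 12 in iPSC macrophages, 32, 31 and 30 in BM macrophages, and 30, 12, 17 and 8 between the sources. Over the 34 genes and all comparisons it gained 7 calls and lost 5, among them those of Cmpk2 at day 12 in iPSC macrophages (adjusted p = 0.064) and of Eif2ak2 in the day 3 interaction (0.051). With the block nested in source the day 3 interaction calls of Eif2ak2 (0.062) and Cmpk2 (0.058) were lost.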

Other observations

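Replicates of a group differed in their overall level of the 34 genes in a few places. Of the 34, 31 lay above their own median over all 24 libraries in iPSC day 0 replicate 3, against 24 in replicate 1 and 20 in replicate 2. In BM day 12 replicate 1 the number was 32, against 15 in replicate 2 and 17 in replicate 3. In iPSC day 12 it was 10 in replicates 1 and 2 and 3 in replicate 3.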
